A study of Mus musculus with 4 samples.

Results

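Binding of IRF2 was examined at 8 genes that carry peptides onto MHC class I in mouse intestinal stem cells, out of 21887 protein-coding genes in the RefSeq table used. The genes were listed by function: Tap1 and Tap2 (peptide transport into the endoplasmic reticulum), Erap1 (trimming), Tapbp and Tapbpl (loading and editing), and the chaperones Calr, Pdia3 and Canx. All 8 were found in the table. IRF2 binding was mapped by chromatin immunoprecipitation with an anti-IRF2 antibody and sequencing (ChIP-seq) in Lgr5 stem cells of the small intestine. There were 2 IRF2 libraries and 2 inputs, the latter not analysed here. The IRF2 libraries are called replicate 1 and replicate 2 in the order of their records, although the title of replicate 2 calls it ISC-rep1. Cells of all 4 samples came from the strain Lgr5-EGFP-Ires-CreERT2, in which an EGFP and inducible Cre cassette sits at the Lgr5 locus. The labels give no treatment and no age. The design text names 5 mice without tying them to libraries, so separate animals for the 2 libraries are not stated. Each library was called on its own and read depth is unknown, so a gene without a peak was not called there. With 1 group of IRF2 libraries no comparison between conditions was possible, and since the inputs were not used, enrichment over input was not computed. The values below are a description.

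IRF2 is a member of the interferon regulatory factor family, which binds DNA at repeats of the tetranucleotide GAAA and is best known for regulating interferon-responsive genes. MHC class I molecules display short peptides from proteins made in the cell to cytotoxic T cells. Peptides cut by the proteasome are pumped into the endoplasmic reticulum by the TAP1 and TAP2 heterodimer, trimmed there by ERAP1, and loaded with the help of tapasin (the product of Tapbp), calreticulin (Calr) and the disulfide isomerase ERp57 (Pdia3). Calnexin (Canx) holds newly made class I heavy chains before loading. TAPBPR, the product of Tapbpl, is a tapasin relative that exchanges peptides outside the loading complex.

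Promoter sequence was available from RefSeq (GRCm38.p6, the assembly underlying mm10) for 6 of the 8 genes, the entries for Tap2 and Tapbpl being missing. The stretches shown are those that lie under an IRF2 peak before or at the start of Tap1, Tapbp and Erap1, and a stretch before Calr, which had no peak close by. Capitals mark each GAAA or its complement TTTC, the core of IRF sites. The Tap1 stretch, chr17:34187331-34187555 on the plus strand, fills the gap between the facing ends of Psmb9 and Tap1. The Tapbp stretch, chr17:33919380-33919477 on the plus strand, runs from the edge of the narrower interval to the base before the start. The Erap1 stretch, chr13:74639839-74639868 on the plus strand, spans the annotated start. The Calr stretch, chr8:84846970-84846999 on the minus strand, lies upstream of the start.
Tap1: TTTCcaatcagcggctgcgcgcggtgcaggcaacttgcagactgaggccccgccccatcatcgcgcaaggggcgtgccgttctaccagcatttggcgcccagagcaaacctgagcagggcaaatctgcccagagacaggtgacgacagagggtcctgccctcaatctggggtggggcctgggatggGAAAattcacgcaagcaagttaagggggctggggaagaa
Tapbp: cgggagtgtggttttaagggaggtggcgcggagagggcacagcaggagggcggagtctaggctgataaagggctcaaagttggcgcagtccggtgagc
Erap1: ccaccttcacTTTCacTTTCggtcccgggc
Calr: ctgggaagcaatgGAAAgggacagctgtag

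Of the 8 genes, 5 had an IRF2 peak in both libraries: Tap1, Tap2, Tapbp, Tapbpl and Erap1. The rule was an interval midpoint at most 5000 bp from either gene end. By it, 0.795% of all protein-coding genes had a peak in replicate 1, 0.804% in replicate 2 and 0.164% in both. At 1000 bp the count was still 5, and the shares of all genes were 0.425%, 0.521% and 0.101%. At 500 bp, which left out Tapbp, they were 0.265%, 0.343% and 0.0777%. The genes fell into separate classes by distance. In replicate 1 the nearest midpoint lay 100.5 bp from Tap1, 177.5 bp from Tap2, 249 bp from Tapbpl, 380 bp from Erap1 and 517 bp from Tapbp. In replicate 2 it lay 115 bp from Tap2, 168 bp from Tap1, 319 bp from Erap1, 362 bp from Tapbpl and 503 bp from Tapbp. Tapbp was thus the farthest of the 5 in either library, and the orders of the rest differed. No gene of the 8 had its nearest peak between 517 bp and 69.9 kb, so any window in that span gives the same 5. Calr, Pdia3 and Canx had their nearest peaks between 69.9 kb and 4.28 Mb away.

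**Figure D1:**
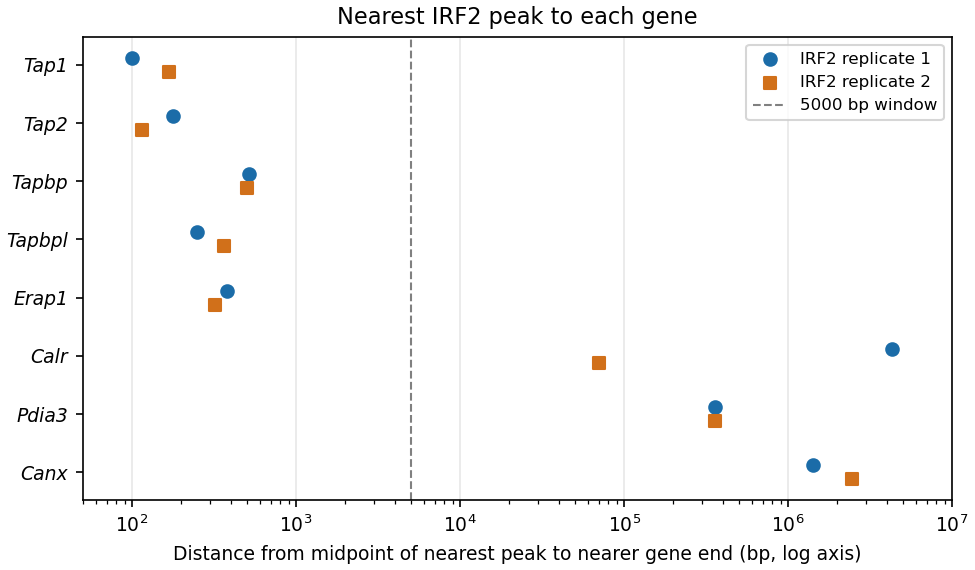
Distance from the midpoint of the nearest IRF2 peak to the nearer end of each of the 8 genes (bp, log axis), with circles for replicate 1 and squares for replicate 2. Tap1, Tap2, Tapbp, Tapbpl and Erap1 lie at 517 bp or less in both libraries, while Calr, Pdia3 and Canx lie to the right of the dashed 5000 bp line.

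Tap1 and Tap2 encode the subunits of the peptide pump, and each had a peak at its low-coordinate end on chromosome 17. The Tap1 gene spans 34187556 to 34197225 (mm10) and is transcribed from the plus strand, so that end is its annotated start. The replicate 1 interval ran from 34186588 to 34188323 (1736 bp, summit at 34187136, summit score 41) and the replicate 2 interval from 34186868 to 34187908 (1041 bp, summit at 34187200, score 19). The summit score is the authors' value for a peak, in a unit that is not stated, and is read here only within its own list. Both summits lay upstream of Tap1, by 420 and 356 bp, and inside Psmb9, the neighbouring immunoproteasome subunit gene, by 194 and 130 bp. Psmb9 runs on the minus strand from 34187330, so the same peak lies at the starts of both genes. By midpoint, Tap1 was the nearer gene in replicate 1 (100.5 bp against 125.5 bp) and Psmb9 in replicate 2 (58 bp against 168 bp). The peaks therefore cannot be given to Tap1 rather than Psmb9.

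Tap2 (chromosome 17, 34204479 to 34216321) had a peak that no other protein-coding gene end shared within 1000 bp. In replicate 1 it covered 34204245 to 34205068, with the summit 129 bp inside the gene and a score of 58. In replicate 2 it covered 34204285 to 34204903, with the summit 49 bp inside the gene and a score of 19. The next gene end, that of Psmb8, was 3202.5 bp and 3140 bp from the midpoints.

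Tapbp and Tapbpl encode tapasin and its relative TAPBPR. At Tapbp (chromosome 17, 33919478 to 33929290, plus strand) the interval covered 33919341 to 33920649 in replicate 1 and 33919380 to 33920582 in replicate 2. The summits lay 298 and 394 bp downstream of the annotated start, with scores of 71 and 29. Most of each interval was thus inside the gene, over its first part. The same bases hold Gm19412, a long noncoding RNA annotated on the opposite strand (33919289 to 33920496), which contained the summits of both libraries. The end of Zbtb22 lay 670 and 656 bp from the midpoints and outside both intervals.

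Tapbpl (chromosome 6, 125223927 to 125231860) had its peak at the high-coordinate end. The interval covered 125231190 to 125232032 in replicate 1, with a score of 40, and 125231147 to 125231849 in replicate 2, with a score of 15. The summits were 212 and 324 bp inside the gene. The replicate 2 interval stopped 11 bp short of the gene end, whereas the intervals of the other 4 genes, and that of Tapbpl in replicate 1, crossed it. A long noncoding RNA, E130112N10Rik, starts inside Tapbpl at 125231269 on the plus strand, and the summits of both libraries fell within it. Cd27, a lymphocyte co-stimulatory receptor gene, was the next protein-coding gene, at 1009 and 1122 bp from the midpoints.

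Erap1, the trimming peptidase, stood alone. Its gene covers 74639573 to 74693205 on chromosome 13, and the next protein-coding gene end was 21987 and 21926 bp from the peak midpoints. The interval covered 74639492 to 74640414 in replicate 1 (923 bp, score 82) and 74639443 to 74640341 in replicate 2 (899 bp, score 25). RefSeq places the start of its promoter entry at 74639853, inside the annotated gene span. Measured from that start the summits were 19 and 83 bp downstream, closer than the 299 and 363 bp from the outer gene end.

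The 2 libraries placed these peaks at nearly the same bases. All 5 pairs of intervals overlapped. Of all protein-coding genes, 36 had a peak of both libraries within the 5000 bp window, and 34 (0.155%) had overlapping intervals there. Overlap was thus usual among genes with a peak in both libraries. The overlap was 1041 bp at Tap1, 619 bp at Tap2, 1203 bp at Tapbp, 660 bp at Tapbpl and 850 bp at Erap1. The replicate 2 intervals at Tap1, Tap2 and Tapbp lay wholly inside those of replicate 1, and at Tapbpl and Erap1 93.9% and 94.5% of them did. As a share of the replicate 1 interval, the overlap was 60.0% at Tap1, 75.1% at Tap2, 78.3% at Tapbpl, 91.9% at Tapbp and 92.1% at Erap1. Summits differed by 64 bp at Tap1 and Erap1, 80 bp at Tap2, 96 bp at Tapbp and 112 bp at Tapbpl. These gaps stood around the median of 80 bp over all 56 overlapping pairs in the data, of which 36 had a gap of 112 bp or less. Most summits were placed on a 16 bp grid (371 of 380 and 226 of 238), which limits such distances. The replicate 2 summit lay farther into the gene at Tapbp, Tapbpl and Erap1, and closer to the gene end at Tap1 and Tap2.

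**Figure D2:**
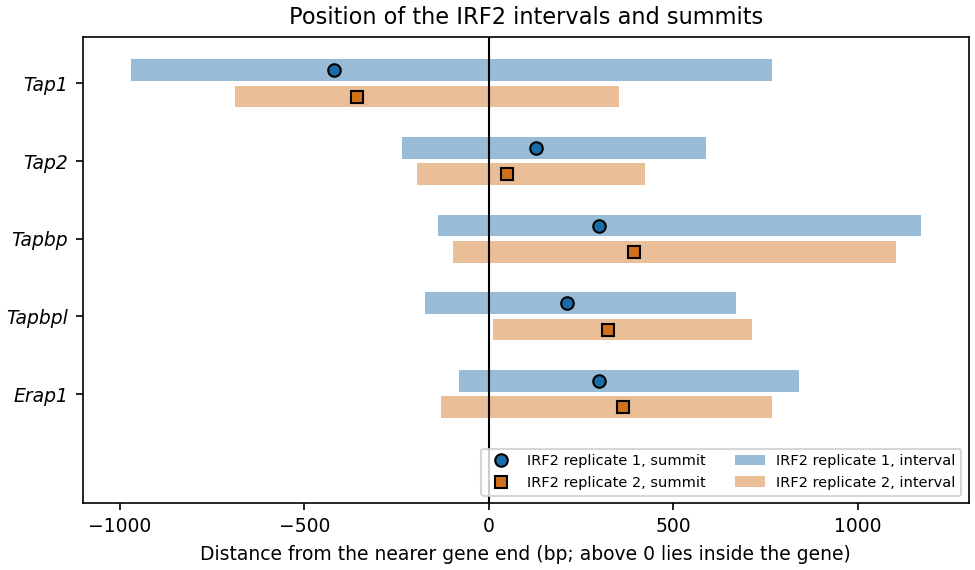
Extent of the IRF2 intervals (bars) and summits (circles and squares) at the 5 genes with a peak, in bp from the nearer gene end, with values above 0 inside the gene. The summits at Tap2, Tapbp, Tapbpl and Erap1 lie inside the gene in both libraries, and those at Tap1 lie 420 and 356 bp outside it.

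By summit score the genes stood in a similar order in the lists. In replicate 1, with 380 peaks, Erap1 ranked 11.5 (tied ranks are averaged), Tapbp 18, Tap2 31.5, Tap1 62.5 and Tapbpl 65. In replicate 2, with 238 peaks, Tapbp ranked 8, Erap1 12, Tap1 and Tap2 36 each, and Tapbpl 91.5. Erap1 and Tapbp led in both lists and Tapbpl came last in both. Tap1 and Tapbpl, at 41 and 40 in replicate 1, were not separated by more than 1 unit of score, and the score of 15 at Tapbpl in replicate 2 was shared by 30 peaks of that list. The median score of the 5 peaks was 58 beside a list median of 22.5 in replicate 1, and 19 beside 14 in replicate 2. Over all peaks that overlapped one of the other library, the median scores were 57 and 16.5, so scores of this size are not particular to these genes. Peaks within 1000 bp of a gene end had medians of 27.5 and 14. All 5 were at or above the upper quartile of the replicate 1 list (33), and 4 of 5 at or above that of replicate 2 (16.75), the exception being Tapbpl. Among peaks whose midpoint was at most 1000 bp from an end of a protein-coding gene (88 and 104), Erap1 ranked 4 in both libraries and Tapbp ranked 7 and 3.

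The intervals were wide for their lists. All 5 intervals were wider than the median of their list in both libraries, with a median of 923 bp beside 524.5 bp in replicate 1 and 899 bp beside 545 bp in replicate 2. Width did not follow score throughout: in replicate 1 Tap1 had the widest interval of the 5 (1736 bp) with the second-lowest score, while in replicate 2 Tapbp had both the widest interval (1203 bp) and the highest score. Over all overlapping peaks the median widths were 995 and 659 bp. The replicate 1 interval was the wider at each of the 5 genes, from 1.03 times the replicate 2 interval at Erap1 to 1.67 times at Tap1. Overlap was also counted over all peaks at least as high as the lowest of the 5. Of the 66 peaks of replicate 1 with a score of at least 40, 37 (56.1%) overlapped a replicate 2 peak, against 14.5% of its whole list. Of the 18 such peaks within 1000 bp of a gene end, 15 (83.3%) did, the 5 described here included. In replicate 2, 37 of the 106 peaks with a score of at least 15 (34.9%) overlapped a replicate 1 peak, against 22.7% of the list. Of the 51 such peaks within 1000 bp of a gene end, 17 (33.3%) did. The cut-offs are the lowest scores of the 5 peaks themselves.

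**Figure D3:**
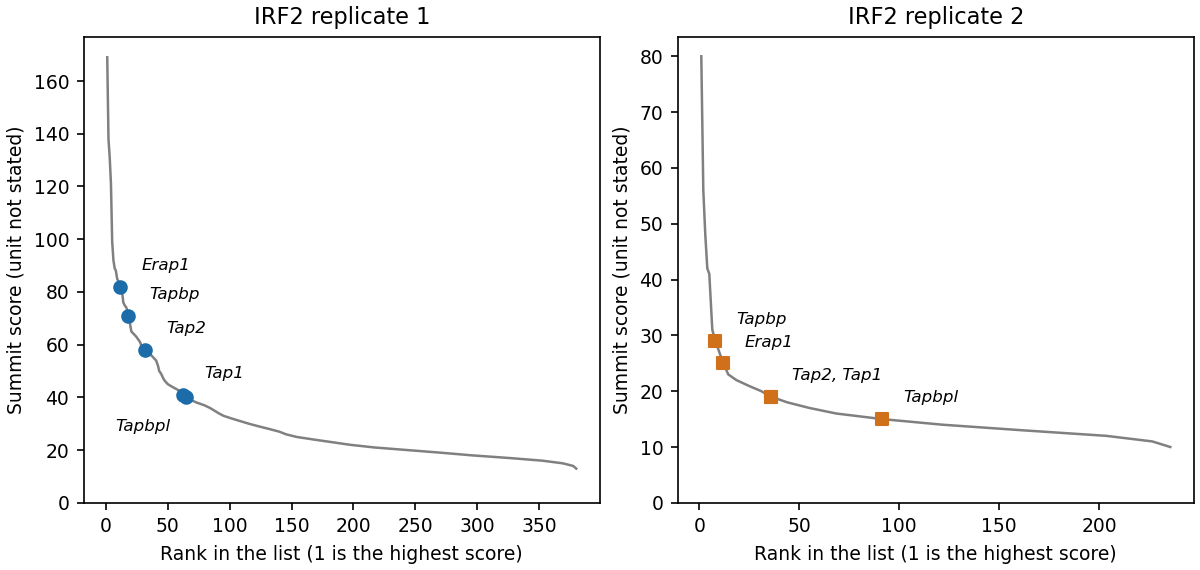
Summit score (unit not stated) against rank for all peaks of replicate 1 (left) and replicate 2 (right), with the peaks at the 5 genes marked. Erap1 and Tapbp lie on the steep part of both curves, and Tapbpl has the lowest score of the 5 in each list (40 and 15).

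The chaperones serve glycoprotein folding in general as well as class I. Their genes lacked a peak in the 5000 bp window in both libraries. Of all protein-coding genes, 0.795% and 0.804% had one, so the lack of a peak in so few genes is close to the background. Calr (chromosome 8, 84842088 to 84846931) had its nearest peak 4.28 Mb away in replicate 1, with 50 protein-coding genes in between, and 69.9 kb away in replicate 2, with 4 in between. The replicate 2 peak (84771738 to 84772623, score 15) was nearest to Nfix, at 29.1 kb. No replicate 1 peak overlapped it, since that library had none closer to Calr than 4.28 Mb.

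Pdia3 (chromosome 2, 121413902 to 121438687) had the same nearest peak in both libraries, 357 kb beyond its high-coordinate end. It covered 121795700 to 121796448 in replicate 1 (score 17, rank 326) and 121795864 to 121796454 in replicate 2 (score 14, rank 121.5). The score was near the bottom of the replicate 1 list and at the median of the replicate 2 list. The end of Frmd5 was nearer to that peak, at 11.0 and 10.9 kb, with 8 protein-coding genes between the peak and Pdia3. Canx (chromosome 11, 50293957 to 50325673) had its nearest peaks 1.42 Mb away in replicate 1, at the interferon-induced GTPase gene Irgm1, and 2.44 Mb away in replicate 2, at Fstl4. For comparison, the median protein-coding gene was 2357 kb from the nearest replicate 1 peak and 3108 kb from the nearest replicate 2 peak. Pdia3 was closer to a peak than most genes in both libraries (14.2% and 11.8% of genes were closer still). Canx was at 37.0% and 43.2% by the same measure, and Calr at 67.0% in replicate 1 and 3.43% in replicate 2.

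The transporter genes stand in a cluster that held 3 peaks in each library. Psmb9, Tap1, Psmb8 and Tap2, which encode immunoproteasome subunits and the pump, are the 4 protein-coding genes of a 34.3 kb stretch of chromosome 17 (34182030 to 34216321). The peaks lay at the Psmb9 and Tap1 gap, at the low-coordinate end of Psmb8 and at that of Tap2. The Psmb8 peak had scores of 45 and 21, and its midpoint was 1330 and 1298.5 bp beyond the far end of Tap1, so Tap1 had 2 peaks within 5000 bp. The outer summits were 17.5 kb apart in replicate 1 and 17.3 kb in replicate 2. Outside the cluster the next peak was 182 kb below and 1047 kb above it in replicate 1, and 261 kb below and 1163 kb above it in replicate 2. Of the 53 regions where intervals of both libraries overlapped, this was the single place with 3 of them within 20 kb. Counted in each list alone, runs of 3 peaks within 20 kb numbered 3 in replicate 1 and 1 in replicate 2. Chromosome 17 had 5 of the 53 overlap regions. Each lay within 5000 bp of a class I gene: the 3 of the cluster, that of Tapbp and that of H2-Q4. On chromosomes 6 and 13 the regions at Tapbpl and Erap1 were 1 of 4 and 1 of 3. Over all chromosomes, 7 of the 53 regions lay within 5000 bp of a gene studied here or of the lists below, so most lay elsewhere.

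**Figure D4:**
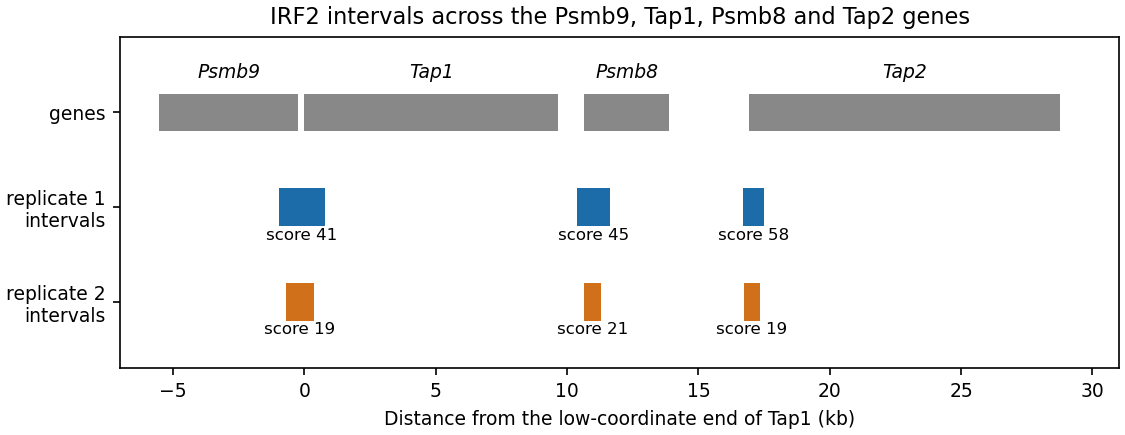
Genes (grey) and IRF2 intervals of replicate 1 and replicate 2 along the cluster of Psmb9, Tap1, Psmb8 and Tap2, in kb from the low-coordinate end of Tap1, with the summit score under each interval. Both libraries have 3 intervals at matching positions, with scores of 41, 45 and 58 in replicate 1 and 19, 21 and 19 in replicate 2.

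Other genes of class I presentation had peaks mostly in replicate 1 alone, as was usual among all genes with a replicate 1 peak. Of 21887 protein-coding genes, 174 (0.795%) had a replicate 1 peak, 176 (0.804%) a replicate 2 peak and 36 (0.164%) both. Among the 5 immunoproteasome and PA28 genes, all had a replicate 1 peak and 2, Psmb8 and Psmb9, also had a replicate 2 peak. Among 9 further genes of class I presentation, 5 had a replicate 1 peak (H2-K1, H2-D1, H2-Q4, H2-T22 and H2-M3) and 1, H2-Q4, had one in both. The H2 genes are near-copies of each other, so the place of reads among them is uncertain. In comparison, each of the 5 transport, trimming and loading genes with a replicate 1 peak had one in replicate 2. The peak between Psmb9 and Tap1 is the same for both genes and is counted in both lists. Their replicate 1 scores ran from 40 to 82. Those of the class I, immunoproteasome and PA28 genes with a peak in that library alone ran from 22 at Psme1 to 39 at Psme2, and H2-Q4, with a peak in both, also had 39. The score of Tapbpl, 40, is 1 unit above these.

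Other lists of genes with related activities had few peaks. None of 9 other peptidases and none of 9 other transporters of ABC subfamily B, the family of Tap1 and Tap2, had a peak within 5000 bp in either library. Of 14 other folding and quality control genes of the endoplasmic reticulum, Ganab, a glucosidase subunit, had a replicate 1 peak (792.5 bp from an end, score 17). Of 14 constitutive proteasome genes, Psma1 had a replicate 1 peak (1560.5 bp, score 20). Neither list had a replicate 2 peak. Each of these counts rests on a single peak, and a count of 0 in lists of this size is close to the backgrounds of 0.795% and 0.804%. The peak lists hold no expression, so the stem cell label could not be checked against marker levels, and none of Lgr5, Olfm4, Ascl2 and Smoc2 had a peak within 5000 bp.

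**Figure D5:**
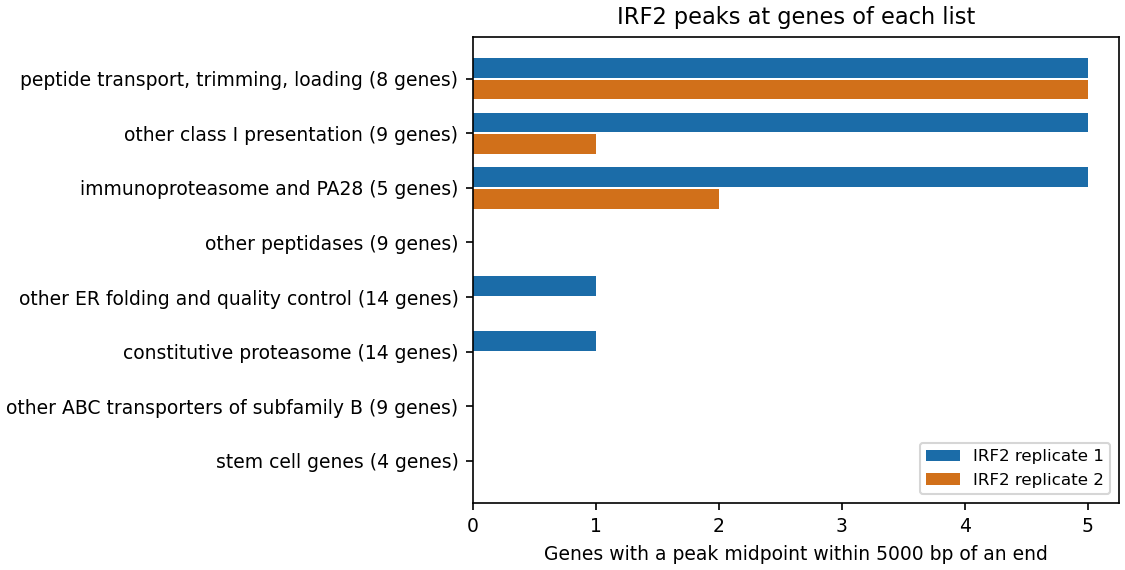
Number of genes in each list with an IRF2 peak midpoint within 5000 bp of a gene end, in replicate 1 and replicate 2. Transport, trimming and loading genes number 5 of 8 in both libraries, and the other class I lists are higher in replicate 1 (5 of 9 and 5 of 5) than in replicate 2 (1 of 9 and 2 of 5). The peak shared by Tap1 and Psmb9 counts in both of their lists. Of all protein-coding genes, 0.795% had a peak in replicate 1 and 0.804% in replicate 2.

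The promoter letters did not look alike at the genes with peaks. The IRF motif searched was GAAA, any 2 bases and GAAA again, on both strands, in windows from 250 bases before to 50 after the annotated start. It occurs in 3.44% of the 32851 RefSeq windows of that length. Of the 6 windows of the genes studied, 1 held it, that of Erap1. A motif of 3 such blocks, present in 0.116% of all windows, was in 0 of the 6. The site lies on the minus strand at 74639849 to 74639858 and straddles the start, from position -4 to 6, and is the run of TTTC blocks in the sequence printed above. It was 14 bp from the replicate 1 summit and 78 bp from the replicate 2 summit, inside both intervals.

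The Tap1 window lay wholly under the intervals of both libraries, and its closest matches had 2 mismatches, as had those of 52.5% of all windows. The printed gap between Psmb9 and Tap1 has 2 GAAA or TTTC blocks, a TTTC next to Psmb9 and a GAAA toward Tap1. The summits themselves lie outside it, in Psmb9. The Tapbp window was under the intervals for 187 and 148 of its 300 bases and had no match with fewer than 3 mismatches. Its summits lie downstream of the window, in sequence not read here. Without a peak close by, Calr had 2 overlapping matches with 1 mismatch each, both within the printed stretch, Canx had 2 mismatches at best and Pdia3 had 3. Windows with at most 1 mismatch make up 35.4% of the total. For context, of the windows lying wholly under a peak, 16 of 27 in replicate 1, 6 of 26 in replicate 2 and 6 of 10 under peaks of both held the exact motif; windows of facing genes share bases and are not independent.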

How the data were processed

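The deposited files hold peaks of 2 IRF2 libraries. Reads were aligned to mm10 with BWA 0.7.12 and peaks called with MACS, per the submitters' processing notes. Its version, thresholds and filters, and the read depth, were not stated in the sources used here, so no interval for counting error was computed. The track names, per the file headers, show separate calls for each library, with summits and intervals. The summit score is a whole number deposited by the authors, in a unit not stated, and was used within its list only. The file of replicate 2 also holds a copy of the 380 peaks of replicate 1, counted once.

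Distances ran from interval midpoints to the nearer end of each protein-coding gene on the autosomes, X and Y (RefSeq GRCm38.p6, Python 3.11.15, pandas 2.3.3). Coordinates are 1-based. Strand and start came from the RefSeq promoter table. Genes and lists were chosen with earlier results of these data known, so no list was tested. Named genes were the 8 studied and the 4 stem cell genes Lgr5, Olfm4, Ascl2 and Smoc2 whatever their result, genes of 6 pathway lists with a peak within 5000 bp, and neighbours within 1000 bp of a peak midpoint. Other genes, such as Cd27, Nfix and Fstl4, were named after their values were seen, as the genes next to a peak. Intervals were shared if they overlapped by 1 bp. The distance search was checked on simulated peaks. Exons and introns were not used.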

Additional observations from a re-analysis of the deposited data

How the results depend on the processing

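The count of 5 genes with a peak, in either library and in both, was also 5 with windows of 1000 and 25000 bp, with summit positions and with the higher-scored 50% of each list. A window of 500 bp gave 4, since Tapbp lies at 517 and 503 bp. Overlapping intervals were found at 5 genes with a reciprocal overlap of 50% or summits within 200 bp. Leaving out a library gives no value for counts over both libraries, so that planned setting could not be computed. Counting annotated starts alone gave 3 in each library, because Tap2 and Tapbpl have no start in the promoter table. The higher-scored 10% of each list, a setting chosen after seeing the data, kept 3 genes in each library. In replicate 2 these include Tap1 through the Psmb8 peak. Its score of 21 (rank 24.5) is tied with others around that cut, so keeping it rests on how ties were handled. The higher-scored 25%, also chosen later, kept 5 in replicate 1 and 4 in replicate 2. Measured to the nearest base of the interval, the median distance of the 5 peaks was 0 bp in both libraries, against 249 and 319 bp. That distance is 0 where an interval crosses the gene end, as each did except that of Tapbpl in replicate 2 (11 bp). Ranked among gene-end peaks alone, their median rank was 10.5 in replicate 1 and 15.5 in replicate 2, against 31.5 and 36 in the whole lists. Genes of the other pathway lists with a peak in both libraries numbered 3, also with a 1000 bp window or the higher-scored 50% of each list. Of the 60 genes of these lists, 12 had a peak in replicate 1 and 3 in replicate 2. The shares of all protein-coding genes were 0.795% in replicate 1, 0.804% in replicate 2 and 0.164% in both. The IRF motif with 3 blocks was found in 0 of the 6 promoter windows, and with 1 mismatch allowed in 2. No paired analysis was possible because all libraries used belong to a single group. The read depth is unknown, so what it limits cannot be given as a number.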
